A study of Homo sapiens with 16 samples.

Results

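Genes through which p53 reaches other cell processes were examined, 10 in number: TP53INP1, ZMAT3, PHLDA3, SPATA18, AEN, RPS27L, DRAM1, RRAD, GDF15 and PLK3. Members were taken by symbol, a choice made with earlier results of these data known. Of the 10 genes, 9 had a row in all 4 of the authors' deposited tables, which held 23396 genes in any table and 19344 in all 4. SPATA18 had no row in any of them and was not analysed here. Poly(A) RNA of U2OS, a human osteosarcoma cell line, had been sequenced in 16 libraries, 4 in each of 4 groups. One group received a control siRNA and the solvent DMSO (siControl DMSO), and another the control siRNA and Nutlin-3a (siControl Nutlin-3a). The other two groups received a siRNA against the transcription factor RFX7 with DMSO (siRFX7 DMSO) or with Nutlin-3a (siRFX7 Nutlin-3a). Nutlin-3a was given at 10 µM, and all treatments lasted 24 h. The labels name no clone, no siRNA sequence and no separate cultures, so p-values measure only the spread between these samples, which may be technical.

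Nutlin-3a occupies the p53 pocket of MDM2, the ubiquitin ligase that marks p53 for degradation, and p53 then accumulates without DNA damage. p53 acts as a transcription factor on arrest genes, on apoptosis genes and on a wider set of effectors. GDF15 is a secreted cytokine of the TGF-beta superfamily, whose receptor is GFRAL with RET. PHLDA3 is little more than a pleckstrin homology domain and competes with AKT for membrane lipids, RRAD is a small GTPase of the RGK family that binds calcium channel beta subunits, and PLK3 is a stress-responsive polo-like kinase. TP53INP1 binds p53 and kinases that phosphorylate it in the nucleus, and LC3 family proteins in the cytoplasm. DRAM1 is a lysosomal membrane protein of autophagy, and SPATA18 (Mieap) acts in mitochondrial quality control. ZMAT3 is a zinc-finger RNA-binding protein that regulates splicing and mRNA stability, AEN is a nuclease of apoptosis, and RPS27L is a close relative of the ribosomal protein RPS27. RFX7 is a winged-helix factor of the RFX family, which in turn responds to p53.

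The authors' deposited tables hold comparisons of 2 groups of 4 libraries and no single library, so whether libraries of different groups overlap cannot be given, and errors below are standard errors (SE) or 95% intervals made from them. The base means, mean normalised read counts over the 8 libraries of a comparison, added up to between 27946376 and 35311111 across the tables. A gene was called at an adjusted p under 0.05. RFX7 itself was lower with its siRNA in the authors' deposited tables, by −2.42 ± 0.07 on the log2 scale under DMSO and −2.37 ± 0.07 under Nutlin-3a; its sign helped to set the direction of the tables. Of 7 osteoblast lineage markers, all had a row in the authors' deposited siControl table, with base means of 432 for RUNX2 and 371 for ALPL, and 4.25 for BGLAP. Among 5 markers of other cell types, ALB and MYH6 had no row there, PTPRC had a base mean of 5.21, CDH5 of 6.94 and EPCAM of 191. In bulk libraries a change in the share of cells that express a gene and a change in RNA per cell cannot be told apart.

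All 9 genes rose with Nutlin-3a in siControl cells, and all 9 rose in siRFX7 cells. Over all genes of the authors' deposited tables, 18.3% were called higher in siControl and 18.7% in siRFX7, and 19.6% and 20.3% were called lower. The median log2 fold change of the 9 was 1.72 in siControl, beside 0.01 over all genes tested. In siRFX7 it was 1.80, beside 0.01 over all genes. These are genes known as p53 targets, and induction by Nutlin-3a had been seen in these tables before, so the counts describe the genes.

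**Figure D1:**
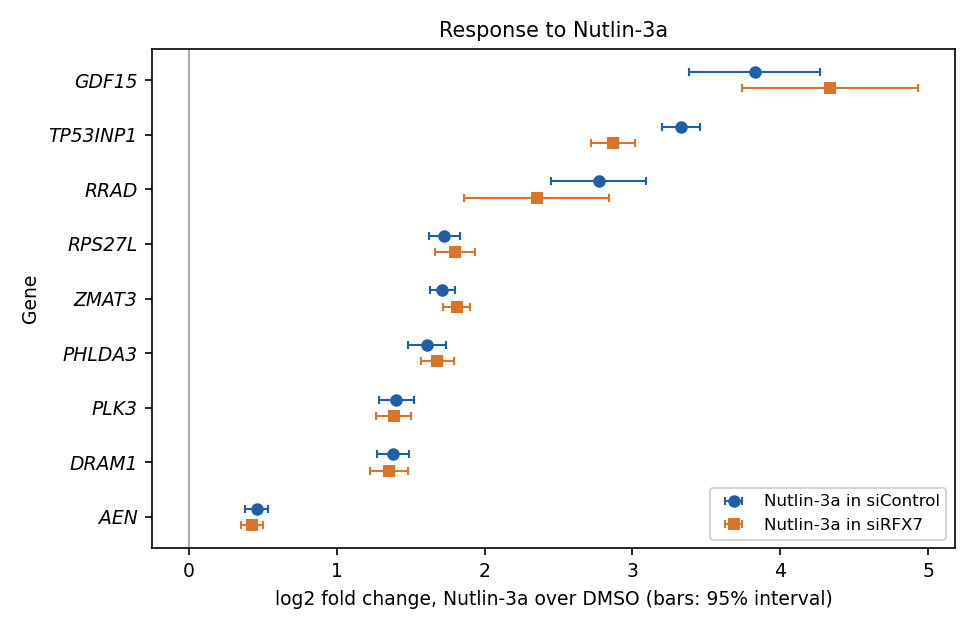
Log2 fold change of Nutlin-3a over DMSO for the 9 genes, in siControl cells and in siRFX7 cells, with 95% intervals from the deposited standard errors (4 libraries in each group). In siControl GDF15 stands highest at 3.83 and AEN lowest at 0.46; TP53INP1 is the gene whose points lie apart relative to their intervals, at 3.33 and 2.87.

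Among the signalling genes, GDF15 (ENSG00000130513, chromosome 19, 18374731 to 18389176, plus strand, GENCODE 29 on GRCh38) had the largest response. Its level implied by the authors' deposited table was 15.01 normalised counts in siControl DMSO and 213 in siControl Nutlin-3a. On the separate scale of the siRFX7 table it was 7.05 with DMSO and 142 with Nutlin-3a. For this and every gene below, implied counts are comparable only within a siRNA, not between siControl and siRFX7, whose direct comparison is given further on. The Nutlin-3a group was thus high and the DMSO group low for either siRNA. From the authors' deposited tables GDF15 was 14.2-fold higher with Nutlin-3a in siControl (95% interval 10.4 to 19.3) and 20.2-fold higher in siRFX7 (13.4 to 30.6). The low counts with DMSO go with the widest intervals among the 9 genes. Of the 13525 genes whose base mean reached 100 in siControl, 9 had a larger log2 fold change, and in siRFX7, where its base mean fell below 100, 1 of 12867 did.

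RRAD (ENSG00000166592, chromosome 16, 66921679 to 66925644, minus strand) went from 42.8 to 292 normalised counts with Nutlin-3a in siControl, and from 16.1 to 82.1 in siRFX7 on that table's own scale, as implied by the authors' deposited tables. It was higher with Nutlin-3a for either siRNA. In the authors' deposited tables the fold change was 6.83 in siControl (5.46 to 8.53; adjusted p 3.14e-62 by DESeq2) and 5.10 in siRFX7 (3.63 to 7.17; adjusted p 1.19e-19).

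PHLDA3 (ENSG00000174307, chromosome 1, 201464383 to 201469237, minus strand) went from 1539 to 4709 normalised counts in siControl and from 1049 to 3366 in siRFX7 on that table's own scale, by the levels implied in the authors' deposited tables. It was 3.06-fold higher with Nutlin-3a in siControl and 3.21-fold higher in siRFX7. For PLK3 (ENSG00000173846, chromosome 1, 44800225 to 44805990, plus strand) the authors' deposited tables imply 590 and 1562 normalised counts in siControl DMSO and Nutlin-3a, and 465 and 1216 in siRFX7 on that table's own scale. Its 2.65-fold and 2.61-fold responses in the authors' deposited tables differed by less than their errors. Both genes were therefore high in the Nutlin-3a groups with either siRNA.

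TP53INP1 (ENSG00000164938), whose protein works both with p53 kinases and with the autophagy machinery, had the second largest response in siControl. The levels implied by the authors' deposited tables were 265 normalised counts in siControl DMSO and 2659 in siControl Nutlin-3a. On the siRFX7 table's own scale, which cannot be set against the siControl counts, they were 199 with DMSO and 1451 with Nutlin-3a. It rose 10.0-fold in siControl (9.17 to 11.0) and 7.30-fold in siRFX7 (6.58 to 8.09), both with an adjusted p listed as 0 in the authors' deposited tables. In siControl 14 of the ranked genes had a larger log2 fold change, and in siRFX7 11 did.

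DRAM1 (ENSG00000136048, chromosome 12, 101877351 to 102012130, plus strand), the lysosomal gene of the set, went from 725 to 1885 normalised counts in siControl and from 490 to 1253 in siRFX7 on that table's own scale, as implied by the authors' deposited tables. Its fold change there was 2.60 in siControl and 2.56 in siRFX7.

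The splicing regulator ZMAT3 (ENSG00000172667, chromosome 3, 179017223 to 179072279, minus strand) went from 2279 to 7486 normalised counts in siControl and from 2082 to 7306 in siRFX7 on that table's own scale, by the levels implied in the authors' deposited tables. In those deposited tables of the authors it was 3.28-fold higher in siControl (3.10 to 3.48) and 3.51-fold higher in siRFX7. RPS27L (ENSG00000185088, chromosome 15, 63125872 to 63158021, minus strand) had a response of like size, with 1506 to 4993 normalised counts in siControl, 1090 to 3797 in siRFX7 on that table's own scale, and fold changes of 3.32 (3.09 to 3.56) and 3.49 in the authors' deposited tables. AEN (ENSG00000181026, chromosome 15, 88621296 to 88632282, plus strand) had the smallest response, from 3811 to 5237 normalised counts in siControl and from 3030 to 4074 in siRFX7 on that table's own scale, as implied by the authors' deposited tables. It rose 1.37-fold in siControl (1.30 to 1.45; adjusted p 3.94e-31 by DESeq2) and 1.34-fold in siRFX7 (adjusted p 7.71e-27) in the authors' deposited tables. In siControl 1066 of the 13525 ranked genes had a larger log2 fold change than AEN, against 86 above ZMAT3 and 84 above RPS27L.

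**Figure D2:**
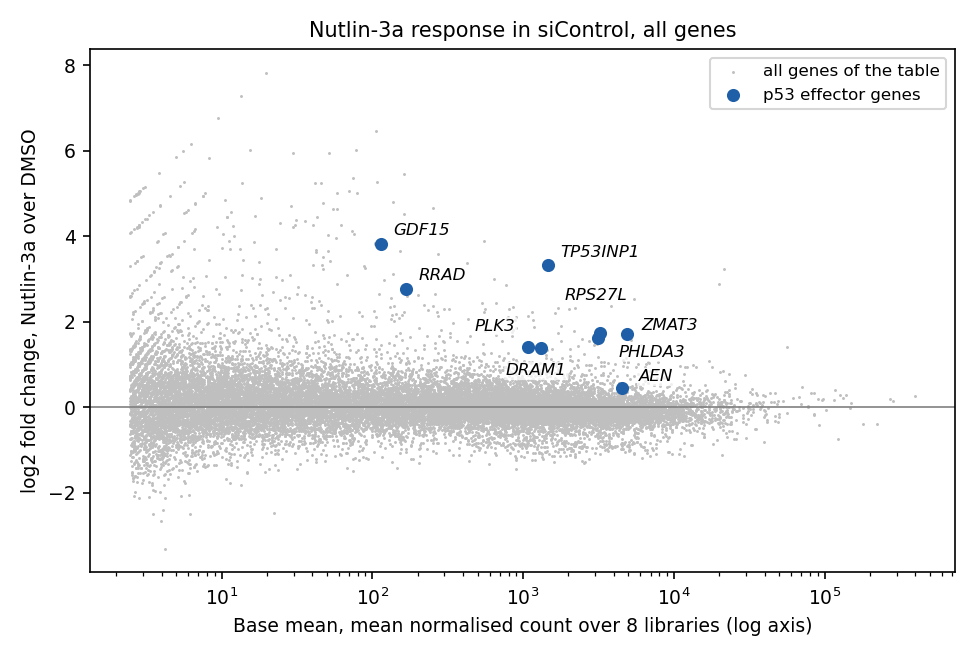
Log2 fold change of Nutlin-3a over DMSO in siControl cells against base mean (mean normalised count over 8 libraries, log axis) for all 23353 genes of the deposited table, with the 9 genes in blue. All 9 lie above 0, from AEN at 0.46 to GDF15 at 3.83, and GDF15 and RRAD lie furthest left.

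Ordered by log2 fold change in siControl, GDF15, TP53INP1 and RRAD came first, each apart from the next beyond the 95% interval of the gap. RPS27L, ZMAT3 and PHLDA3 followed and neighbours among them did not differ beyond their errors. PLK3 and DRAM1 came next and did not differ beyond their errors, and AEN was last. Of the 8 gaps between neighbours, 5 lay beyond the errors in siControl and 5 in siRFX7, where ZMAT3 and RPS27L changed places.

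Promoter windows, from 250 bases before to 50 bases after an annotated start, were matched in RefSeq (GRCh38.p14) for 7 of the 10 genes, SPATA18 included, in 8 windows. They were searched on both strands for the 10-base consensus unit of the p53 response element, which is its own reverse complement, so that a match counts once. RPS27L and AEN, the genes on chromosome 15, each held 1 match, and 6.63% of all 35116 promoter windows held one. The matches are shown with 10 bases on each side, 5′ to 3′ on the gene's strand, because they were the only matches to that consensus in these windows; capitals mark the matching unit.
RPS27L, chr15:63157517-63157546, minus strand: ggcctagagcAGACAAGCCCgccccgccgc
AEN, chr15:88621296-88621325, plus strand: agtcggagccGGGCTTGCCCgggcatgtgg
The first base of the unit lies 59 bases before the RefSeq start of RPS27L and 34 bases before that of AEN. In GENCODE 29 both lie in the 5′ untranslated exon of a transcript that starts further upstream. Their Nutlin-3a responses were 3.32-fold and 1.37-fold in the authors' deposited siControl table. The 6-base RFX core GTTGCC, searched on both strands, was in 0 of the 8 windows, and 12.2% of all windows held it. A window without a match says only that these letters are not there. The 3′ untranslated regions of the 9 genes held 0 copies of the heptamer GTATCTA, which 9.93% of 11510 protein-coding genes whose base mean reached 100 carried; that heptamer came from an earlier scan of these same fold changes.

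With the RFX7 siRNA under DMSO most of the set did not pass the test. ZMAT3 was higher, RRAD and PHLDA3 were lower, and 6 genes were not called. In that comparison, by the authors' deposited table, 19.9% of all genes were called higher and 17.5% lower, so 1 of 9 and 2 of 9 are near the background. The median log2 fold change of the 9 was −0.07.

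Under Nutlin-3a ZMAT3 was again higher, TP53INP1, RRAD and DRAM1 were lower, and 5 genes were not called. Background shares in the authors' deposited table were 17.2% higher and 15.4% lower, and the median of the 9 was −0.09. This comparison shares its siControl Nutlin-3a libraries with the response in siControl, and its siRFX7 Nutlin-3a libraries with the response in siRFX7. Of the 5 markers of other cell types, the epithelial gene EPCAM was called higher with the RFX7 siRNA, by 0.54 ± 0.11 with DMSO and by 0.41 ± 0.11 with Nutlin-3a, per the authors' deposited tables. CDH5 had a row but was not called, PTPRC, ALB and MYH6 had no row in these comparisons, and the part of such a shift in the results was not tested.

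**Figure D3:**
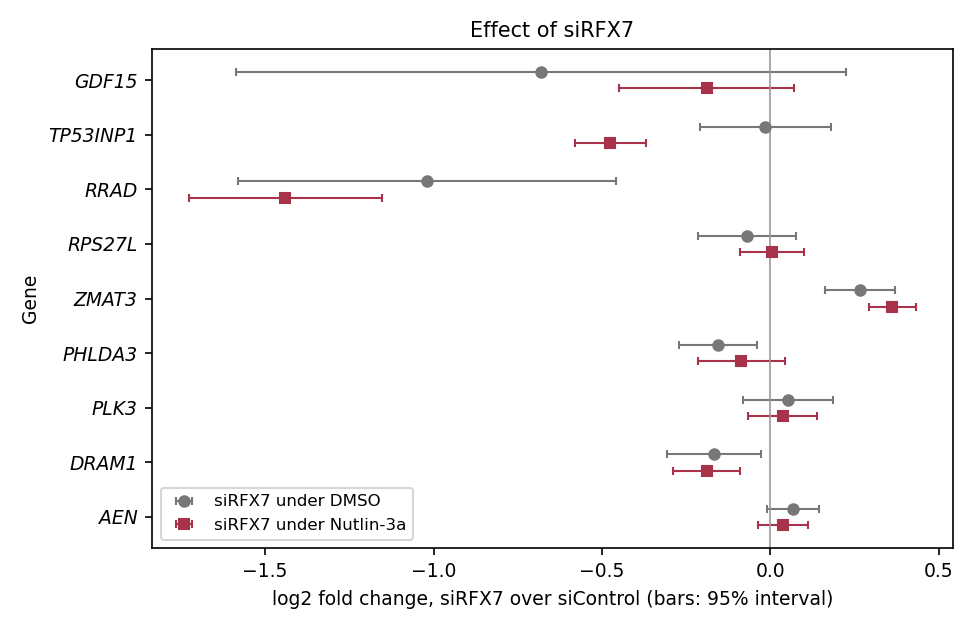
Log2 fold change of siRFX7 over siControl for the 9 genes, under DMSO and under Nutlin-3a, with 95% intervals from the deposited standard errors (4 libraries in each group). RRAD lies lowest under both treatments (−1.02 and −1.44), ZMAT3 lies above 0 under both (0.27 and 0.36), and TP53INP1 lies near 0 under DMSO and at −0.48 under Nutlin-3a.

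RRAD had the largest change of the 9 genes with the RFX7 siRNA. Under Nutlin-3a it lay apart from the next gene, TP53INP1, beyond the errors (gap 0.96 ± 0.16). Under DMSO it did not differ from GDF15 beyond the errors (gap 0.34 ± 0.54). In the authors' deposited tables its log2 fold change was −1.02 ± 0.29 under DMSO (adjusted p 0.00164 by DESeq2), a level 49.3% of control with an interval from 33.4% to 72.8%. Under Nutlin-3a it was −1.44 ± 0.15 in the authors' deposited table (adjusted p 4.97e-21 by DESeq2), or 36.9% of control (30.2% to 45.0%). Of the 13177 genes ranked under Nutlin-3a, 18 lay lower. The counts under DMSO are few. With a t distribution of 6 degrees of freedom in place of the normal, its adjusted p was 0.0529, and over the other alternatives it ran from 0.00139 to 0.0172.

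ZMAT3 moved the other way. In the authors' deposited tables it was 0.27 ± 0.05 higher on the log2 scale under DMSO (120% of control, 112% to 129%; adjusted p 4.11e-06 by DESeq2). Under Nutlin-3a it was 0.36 ± 0.04 higher (129% of control, 122% to 135%; adjusted p 4.96e-22 by DESeq2) in the authors' deposited table, with 878 of the ranked genes higher. It was the single gene of the 9 called higher with the RFX7 siRNA, and the call held with the t distribution, with a base mean minimum of 100, by Benjamini-Yekutieli adjustment and after centring on the median gene.

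TP53INP1 differed between treatments. Under DMSO its log2 fold change with the RFX7 siRNA was −0.01 ± 0.10 in the authors' deposited table (adjusted p 0.930 by DESeq2). Under Nutlin-3a it was −0.48 ± 0.05 in the authors' deposited table (adjusted p 2.52e-17 by DESeq2), 71.9% of control with an interval from 66.9% to 77.3%.

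Small changes made up the rest. DRAM1 was at −0.17 ± 0.07 under DMSO (adjusted p 0.0518 by DESeq2, not called) and at −0.19 ± 0.05 under Nutlin-3a (87.7% of control; adjusted p 0.00112) in the authors' deposited tables. PHLDA3 was at −0.16 ± 0.06 under DMSO (89.8% of control, 82.8% to 97.4%; adjusted p 0.0274 by DESeq2) and at −0.09 ± 0.07 under Nutlin-3a (adjusted p 0.344) in the authors' deposited tables. With the t distribution the adjusted p was 0.0544 for DRAM1 under Nutlin-3a (0.00051 to 0.0117 over the other alternatives) and 0.120 for PHLDA3 under DMSO (0.0153 to 0.286).

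GDF15 was at −0.68 ± 0.46 under DMSO (adjusted p 0.256 by DESeq2) and at −0.19 ± 0.13 under Nutlin-3a (adjusted p 0.291) in the authors' deposited tables, so that its error under DMSO is too wide to place it. RPS27L, PLK3 and AEN lay between −0.07 and 0.07 on the log2 scale in both comparisons of the authors' deposited tables, with adjusted p-values from 0.191 to 0.955 by DESeq2.

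The chain of the authors' deposited fold changes gives each gene's level in all 4 groups relative to siControl DMSO. RRAD stood at 0.493 in siRFX7 DMSO, 6.83 in siControl Nutlin-3a and 2.52 in siRFX7 Nutlin-3a. TP53INP1 stood at 0.990, 10.0 and 7.22 in the same groups, and ZMAT3 at 1.202, 3.28 and 4.22. RPS27L stood at 3.33, PHLDA3 at 2.88 and PLK3 at 2.71 in siRFX7 Nutlin-3a, and GDF15 ended at 12.4, DRAM1 at 2.28 and AEN at 1.41 in siRFX7 Nutlin-3a. The chained levels carry no error here, so their order between genes was not tested. Both routes through the tables to that group gave the same value to within 0.0177 on the log2 scale.

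**Figure D4:**
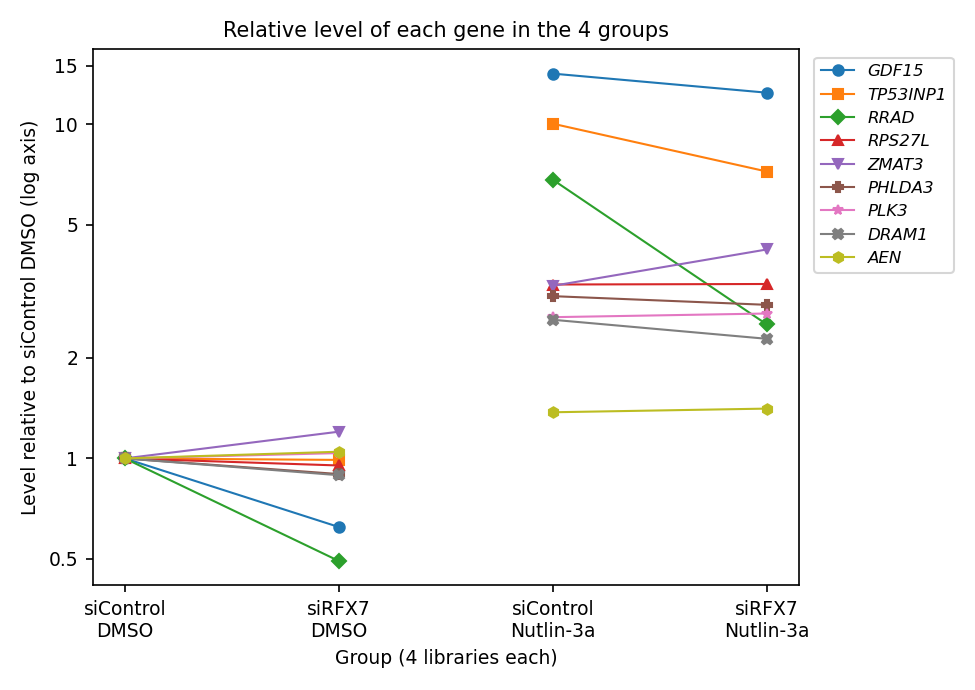
Level of each of the 9 genes in the 4 groups relative to siControl DMSO (log axis), chained from the deposited log2 fold changes; lines join siControl to siRFX7 within a treatment, and no error is drawn. RRAD falls from 6.83 to 2.52 and TP53INP1 from 10.0 to 7.22 between the Nutlin-3a groups, while ZMAT3 goes from 3.28 to 4.22.

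Whether the Nutlin-3a response itself differed between siRNAs was tested by taking the siControl log2 fold change from the siRFX7 one, using tables that share no library. The difference was computed here from the authors' deposited values. TP53INP1 was the 1 gene of the 9 called: its response was lower in siRFX7 by −0.46 ± 0.10 (95% interval −0.66 to −0.26; adjusted p 0.00143, two-sided normal test over 21339 genes). Of all genes in that test, 0.764% were called lower and 0.173% higher. With a t distribution of 12 degrees of freedom the adjusted p of TP53INP1 was 0.182, and over the other alternatives it ran from 0.000886 to 0.0151.

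For the other genes the intervals bound what could have been missed. RRAD differed by −0.42 ± 0.30 (−1.01 to 0.17) and GDF15 by 0.51 ± 0.38 (−0.23 to 1.25), and both intervals reach a 2-fold difference, which is 1 log2 unit. ZMAT3 differed by 0.10 ± 0.06 (−0.03 to 0.22). RPS27L, PHLDA3, PLK3, DRAM1 and AEN had differences between −0.03 and 0.07, with intervals that lay within −0.19 and 0.24. None of these 8 was called.

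The other p53 targets give the background for these responses. Of 29 listed, 28 had a row, and Nutlin-3a raised 27 in siControl cells and 27 in siRFX7 cells at the threshold, by the authors' deposited tables. Their median log2 fold change was 1.34 in siControl and 1.204 in siRFX7. The highest in the authors' deposited siControl table were the cell cycle inhibitor CDKN1A (3.24 ± 0.04), MDM2 (2.89 ± 0.04) and the antiproliferative gene BTG2 (2.61 ± 0.04), and the lowest called were GADD45A (0.75 ± 0.05), TRAF4 (0.41 ± 0.05) and PERP (0.32 ± 0.06). GDF15 lay above the highest of these 28, the 95% interval of TP53INP1 (3.20 to 3.46) held the value of CDKN1A, and AEN (0.46 ± 0.04) lay near TRAF4. With the RFX7 siRNA 5 of the 28 were called higher and 13 lower under DMSO, and under Nutlin-3a 7 higher and 15 lower, by the authors' deposited tables. Over all genes the shares were 19.9% higher and 17.5% lower under DMSO, and 17.2% and 15.4% under Nutlin-3a.

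The difference of responses was called for 3 of these 28. CDKN1A responded less in siRFX7 (−0.26, adjusted p 0.000305), as did the stress-response gene SESN2 (−0.32, adjusted p 0.00244), and RRM2B, a ribonucleotide reductase subunit, responded more (0.26, adjusted p 0.0123), all by the two-sided normal test. SESN2 and RRM2B had larger p-values than TP53INP1, so neither call holds with the t distribution. The value of CDKN1A with the t distribution is not given here.

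Relatives of the 9 genes by sequence or domain gave a different picture. Of 20 listed, 18 had a row in the authors' deposited siControl table, 3 were called higher with Nutlin-3a and 3 lower, beside 18.3% and 19.6% of all genes. Those higher were the kinase PLK2 (0.88 ± 0.03), itself among the listed p53 targets, the exonuclease ISG20 (0.66 ± 0.10) and TP53INP2 (0.42 ± 0.06), in the authors' deposited table. Those lower in the authors' deposited table were the mitotic kinase PLK1 (−0.94 ± 0.04), the centriole kinase PLK4 (−1.05 ± 0.06) and ISG20L2 (−0.19 ± 0.05).

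**Figure D5:**
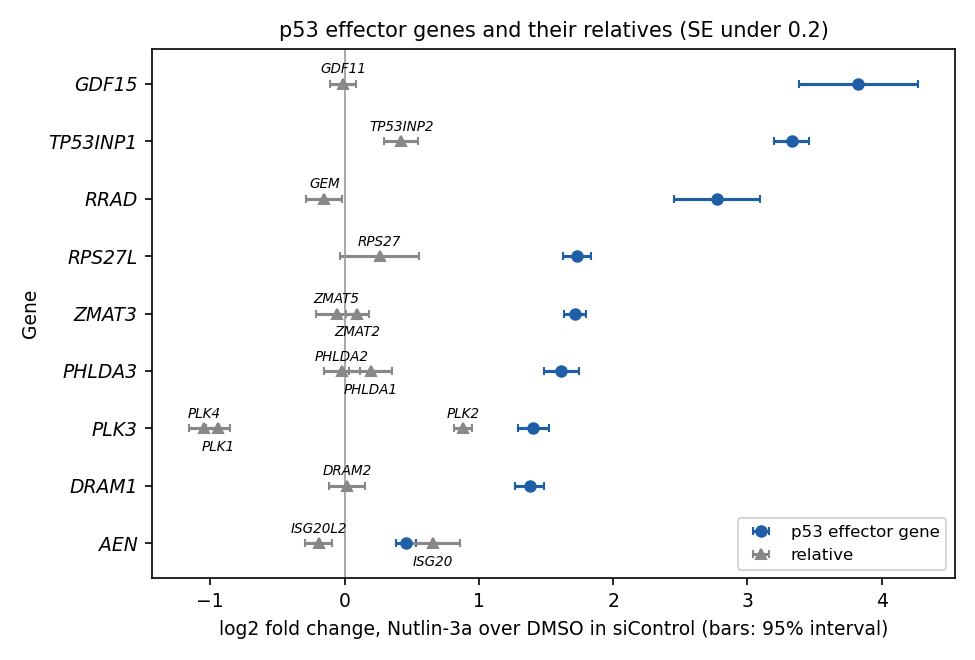
Log2 fold change of Nutlin-3a over DMSO in siControl cells for each of the 9 genes and its listed relatives, with 95% intervals; relatives with a standard error above 0.2 are left out. The relatives of PLK3 spread from −1.05 (PLK4) to 0.88 (PLK2), and ISG20 at 0.66 is the relative drawn above its gene, AEN at 0.46.

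In 16 of 18 pairs the gene lay above its relative beyond the errors of the authors' deposited values. The genes of the set were chosen as p53 targets with their induction known, and many pairs share a gene, so this count is a description. The exceptions were AEN, which lay 0.20 ± 0.11 below ISG20, and ZMAT3 against ZMAT1, whose SE was 0.69. DRAM2 was at 0.02 ± 0.07 and RPS27 at 0.26 ± 0.15 in the authors' deposited table. RPS27 has near-identical copies elsewhere in the genome, and how reads shared with them were counted is not given in the sources used here. Its base mean of 122 is therefore uncertain, and the part of such reads in it was not tested.

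With the RFX7 siRNA 3 of 16 relatives were called higher and 3 lower under DMSO, by the authors' deposited tables. Under Nutlin-3a 2 of 17 were called higher and 7 lower. Over all genes the shares were 19.9% higher and 17.5% lower under DMSO, and 17.2% and 15.4% under Nutlin-3a. Some relatives moved where the gene of the set did not, or moved the other way. DRAM2 was 0.48 ± 0.07 higher under DMSO and 0.36 ± 0.07 higher under Nutlin-3a by the authors' deposited tables, while DRAM1 was below 0 in both. ISG20 was lower, at −0.41 ± 0.12 and −0.57 ± 0.11 in the authors' deposited tables, beside 0.07 and 0.04 for AEN. PLK2 was lower, at −0.43 ± 0.04 and −0.40 ± 0.04 in the authors' deposited tables, beside 0.05 and 0.04 for PLK3. TP53INP2 was 0.22 ± 0.06 and 0.20 ± 0.05 higher in the authors' deposited tables. The difference of Nutlin-3a responses was called for 1 of 17 relatives, PLK1, which fell further in siRFX7 (−0.35, adjusted p 7.05e-06 by the two-sided normal test). Of all genes, 0.764% were called lower in that test. The value of PLK1 with the t distribution is not given here.

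The pathways around these effectors were described by lists of their genes. In the mitophagy and LC3 list, to which TP53INP1, DRAM1 and SPATA18 are tied, 8 of 15 genes in the authors' deposited siControl table were called with Nutlin-3a, all 8 higher, with a median of 0.26, beside 18.3% of all genes called higher. The cargo receptor SQSTM1 (0.83 ± 0.03), the LC3 relative GABARAPL1 (0.78 ± 0.05) and the receptor NBR1 (0.56 ± 0.04) were highest there, and BNIP3L (0.28), ULK1 (0.26) and MAP1LC3B (0.14) the lowest called, in the authors' deposited table. In siRFX7 7 of 14 were called higher and 1 lower in the authors' deposited table. With the RFX7 siRNA SQSTM1 (−0.38 ± 0.04 under DMSO, −0.23 ± 0.04 under Nutlin-3a) and NBR1 (−0.20 ± 0.05, −0.23 ± 0.04) were lower by the authors' deposited tables. The list as a whole had 6 higher and 3 lower of 14 under DMSO, and under Nutlin-3a 2 higher and 3 lower, by the authors' deposited tables, beside 19.9% and 17.5% of all genes under DMSO and 17.2% and 15.4% under Nutlin-3a. GABARAPL1 responded less to Nutlin-3a in siRFX7 (difference −0.23, adjusted p 0.0448 by the two-sided normal test), as TP53INP1 did. Its p-value was larger than that of TP53INP1, so its call does not hold with the t distribution either.

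In the AKT list, the pathway that PHLDA3 restrains, 5 of 14 genes were called lower with Nutlin-3a in the authors' deposited siControl table, with a median of −0.07, beside 19.6% of all genes called lower. The AKT phosphatase PHLPP1 was the lowest (−0.59 ± 0.08), and INPP4B (−0.17), PHLPP2 (−0.17) and AKT2 (−0.14) were also lower in the authors' deposited table. In siRFX7 3 were called higher and 3 lower in the authors' deposited table. With the RFX7 siRNA 7 of 14 were called under either treatment in the authors' deposited tables, all higher, beside 19.9% of all genes called higher under DMSO and 17.2% under Nutlin-3a. The medians of the list were 0.11 and 0.13.

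Of the list of GDF15 maturation and receptor genes, GFRAL had no row, and 1 of 6, the membrane protease MMP14 (0.62 ± 0.05), was called higher with Nutlin-3a in the authors' deposited siControl table. Under the RFX7 siRNA the proprotein convertases FURIN (0.50 ± 0.04 under DMSO, 0.36 ± 0.04 under Nutlin-3a) and PCSK7 (0.56 ± 0.06, 0.54 ± 0.07) were called higher in the authors' deposited tables.

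Among kinases that act on p53, PRKCD (0.44 ± 0.05) and HIPK2 (0.19), known partners of TP53INP1, were called higher with Nutlin-3a, and CHEK1 (−0.85 ± 0.06), CHEK2 (−0.48 ± 0.07) and DYRK2 (−0.22) lower, in the authors' deposited siControl table. The list for apoptotic nucleases held 5 genes beside AEN, not all of them nucleases. DFFA (−0.17 ± 0.04), which encodes the inhibitor of the nuclease DFFB, was the 1 called, lower, in the authors' deposited siControl table. Of 4 calcium channel beta subunit genes, the partners of RRAD, CACNB2 (0.71 ± 0.15) was called higher in the authors' deposited siControl table.

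The genes with the most similar pattern were found by Euclidean distance over the 4 deposited log2 fold changes, among the 12747 genes whose base mean reached 100 in every table. These comparisons share libraries, so the distance is a description. TP53INP1 lay nearest to MDM2 (0.57) and BTG2 (0.84), and next to the antisense transcript FLG-AS1 (0.97). ZMAT3 lay nearest to EDA2R (0.18), then DGKA (0.27) and PGPEP1 (0.29), and PHLDA3 to SYNC (0.11), LACC1 (0.12) and MIR34AHG (0.18). RPS27L lay nearest to EPS8L2 (0.092), SYNC (0.10) and PSTPIP2 (0.10), DRAM1 to PIDD1 (0.097), GALNT5 (0.13) and RBFOX3 (0.17), and PLK3 to TIGAR (0.094), MYLK (0.14) and TLR3 (0.14). AEN had the smallest Nutlin-3a response of the 9 genes with either siRNA, and the part of that in its distances was not tested. It had the closest neighbours of all, GNGT2 (0.0045), OSMR (0.030) and P4HTM (0.034). RRAD and GDF15 had none within 1 log2 unit: FDXR was at 1.07 from RRAD, GAS6-AS1 at 1.12 and PAPLN at 1.22, and FLG-AS1 was at 1.44 from GDF15, TP53INP1 at 1.71 and MDM2 at 1.955. Neither RRAD nor GDF15 reached a base mean of 100 in every table, so genes with counts as low were not among the candidates. Their own fold changes also have wide errors, and the part of either in these distances was not tested.

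PHLDA3, DRAM1 and PLK3 share exon bases with another gene in GENCODE 29, which is AC096677.2 on the same strand for PHLDA3, and AC084398.2 for DRAM1 and TCTEX1D4 for PLK3 on the opposite strand. The kit preserves strand per the labels, but whether reads were counted by strand is not given in the sources used here. TCTEX1D4 had a base mean of 2.64 in the authors' deposited siControl table, and the other two had no row there.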

How the data were processed

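Total RNA of 16 U2OS samples was made into stranded poly(A) libraries, per the labels' protocols. The submitters' processing notes name bcl2fastq 2.19.1.403, Trimmomatic 0.39, FastQC 0.11.9, cutadapt 2.10, SAMtools 1.10, Picard, featureCounts 1.6.5, DESeq2 1.20.0 and the build hg38; the aligner and annotation are not given in the sources used here. The authors deposited 4 DESeq2 tables. The base mean is a signal, the mean normalised count over 8 libraries, computed by the authors. The authors' log2 fold changes and standard errors were used as deposited. The deposited Wald score equalled log2 fold change over SE, and the deposited p-value and adjusted p-value equalled the two-sided normal p and its Benjamini-Hochberg adjustment over the table, which was tested on the files. Depth of single libraries is not in these tables.

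The direction of each table was settled by the closure of the 4 tables over 19344 genes (SD of the gap 0.00291, against 0.514 with the knockdown tables inverted) and by the signs of RFX7, CDKN1A and MDM2. For equal groups, base mean B and log2 fold change L imply group levels 2B/(1+2 to the power L) and that times 2 to the power L. The difference of responses had an SE of the root of the summed squared SEs and a two-sided normal p adjusted over 21339 genes; it was tested on simulated data. Alternatives were a t distribution, a base mean minimum of 100, Benjamini-Yekutieli adjustment, centring on the median gene, a size threshold of 1 log2 unit and the difference from the siRFX7 tables. The 10 members and 8 lists were chosen with earlier results of these data known. Named genes were the members, RFX7, all relatives, the 3 highest and 3 lowest called genes of each other list in siControl, and the 3 nearest genes of each member; genes called for the difference, those named for the knockdown and overlapping genes were chosen after their values were seen. Values of some genes of the lists and markers are not reported here. Of the table identifiers, 99.9% were in GENCODE 29 and 98.9% had the same symbol. Python 3.11.15, pandas 2.3.3, NumPy 2.4.6, SciPy 1.17.1 and matplotlib 3.10.9 were used.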

Additional observations from a re-analysis of the deposited data

Results flagged for a closer look

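The Nutlin-3a response of TP53INP1 was called different between the siRNAs in a two-sided normal test of the difference itself (adjusted p 0.00143). The difference was −0.46 on the log2 scale in siRFX7 relative to siControl, with fold changes of 7.30 and 10.0. With a t distribution of 12 degrees of freedom the adjusted p was 0.182, so the call did not hold there.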

How the results depend on the processing

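No paired analysis was possible because the deposited tables carry no value of a single library, and for the same reason leaving out a replicate, another normalisation and edgeR were not run. With a t distribution the count of genes called with the RFX7 siRNA under DMSO went from 3 to 1, and that for the difference of responses from 1 to 0. With a log2 fold change of at least 1 required, the count was 1 under DMSO, 1 in place of 4 under Nutlin-3a and 0 for the difference, and 8 for Nutlin-3a with either siRNA, AEN being the exception. Of 184 alternative values for 45 single results, 176 kept their direction and side of the threshold. RPS27L with the RFX7 siRNA under Nutlin-3a, not called, went from 0.0052 to −0.0060 on the log2 scale when centred on the median gene. The others changed side only: PHLDA3 under DMSO (adjusted p 0.120 with the t distribution, 0.286 by Benjamini-Yekutieli), DRAM1 under DMSO (0.0390 with a base mean minimum of 100, 0.0336 centred on the median gene), RRAD under DMSO (0.0529), DRAM1 under Nutlin-3a (0.0544) and the difference for TP53INP1 (0.182), the last 3 with the t distribution. A t distribution gives larger p-values by construction. With the minimum of 100, 7 of 7 remaining genes were called in siRFX7. None of 36 implied group levels moved beyond its error when taken from the other comparison that holds the group. Both versions come from the same libraries and were rescaled to each other, so this check could hardly have failed. Low counts limit GDF15 and RRAD.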
